A study of Homo sapiens with 4 samples.

Results

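Receptor tyrosine kinases and the docking proteins that work beside them were examined as a set of 10 genes. They comprise 8 receptors, namely EGFR, ERBB2 and ERBB3 of the epidermal growth factor (EGF) receptor family, MET, INSR and IGF1R, FGFR3 and FGFR4, and 2 docking proteins, FRS2 and GAB1. The genes were found by symbol in a deposited table of 57979 genes, where each of the 10 stood on 1 line. They were chosen by name from earlier results of this same comparison, the fold changes of FPKM between knockout and wild type, so their levels and changes are given as a description without a test.

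Polyadenylated RNA was sequenced from 2 wild-type libraries and 2 TXNDC9 knockout libraries, all labelled as HepG2, a liver cancer line, grown in DMEM with fetal bovine serum. The knockout libraries came from cells in which CRISPR-Cas9 had been directed against TXNDC9, a thioredoxin-like protein that binds the chaperonin TCP1 complex. Guides were delivered by lentivirus, and neither the labels nor the methods say which guide was used, whether the cells were a clone or a pool, or whether replicates came from separate cultures, so p-values measure only the spread between these libraries. Values are in FPKM, that is fragments per kilobase of transcript scaled to the mapped total, and how deeply each library was sequenced is unknown.

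Receptor tyrosine kinases are membrane proteins that bind a growth factor outside the cell and phosphorylate tyrosines on themselves and on docking proteins inside it. The phosphorylated sites recruit adaptors such as GRB2 with the exchange factor SOS1, which load RAS and start the RAF, MEK and ERK kinase cascade, and they recruit phosphatidylinositol 3 kinase. In hepatocytes MET, the receptor of hepatocyte growth factor, EGFR and the insulin receptor are known for their part in liver regeneration and metabolism, and FGFR4 with its coreceptor KLB senses the intestinal hormone FGF19.

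Several facts of the whole series bear on the values below. TXNDC9 mRNA was lower in both knockout libraries, at 21.9 and 27.6 FPKM against 35.1 and 37.3 FPKM, a log2 fold change of −0.55 (standard error 0.14) that did not pass the threshold (limma, Benjamini-Hochberg adjusted p = 0.0145). The 10 hepatocyte and hepatoma markers went against the label HepG2. They summed to between 0.0479 and 0.733 FPKM per library, with APOA1 and FOXA2 listed at 0 throughout, albumin at most 0.0260 FPKM and alpha-fetoprotein at most 0.449 FPKM. Of 5 fibroblast genes 4 had a mean above 1 FPKM, and their sum was 54.1 and 49.6 FPKM in wild-type libraries against 38.4 and 34.5 FPKM in knockout libraries, mostly COL1A1 and COL3A1. The 4 endothelial genes summed to 0.803 and 1.22 against 4.41 and 3.42 FPKM, nearly all from CDH5, with KDR at 0, and the 4 blood and immune genes to at most 0.823 FPKM. The part of these markers in the results was not tested, and in bulk RNA a change in which cells are present and a change in RNA per cell cannot be told apart.

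Across the 13246 genes with a mean above 1 FPKM, 14.2% were called higher and 15.3% lower in the knockout libraries, where a call needed both 2-fold and a limma p under 0.01 after Benjamini-Hochberg adjustment. The FPKM values did not sum to the same total, with 805816 and 971102 in wild-type and 535973 and 568279.5 in knockout libraries. Rescaling each library to the same total (TPM) shifted the median over the tested genes, on the log2 scale, from −0.09 to 0.59, and centring each library on its median moved it to −0.23. The share of calls that were higher was 48.3% as deposited, 90.7% after rescaling to TPM and 35.8% after centring. The log2 fold change also followed transcript length, so values after a correction of every library for transcript length and GC content are also given below, for the 10 genes together in 1 paragraph and for the pathway lists as medians and calls.

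The promoters of the set are shown as a description, and their part in the changes was not tested. Promoters of 300 bases (250 before and 50 after the start, from RefSeq, GRCh38.p14) were matched for 8 of the 10 genes, and those of ERBB3 and GAB1 were not analysed here. The GC box, spelled GGGCGG and read on both strands with overlapping copies counted, was present in 7 of these 8 promoters, all but that of ERBB2, against 44.6% of 27305 promoters of the same length. The E-box CACGTG, the site that MYC and its partner MAX bind, was in 1 of 8 (MET) against 7.43%, and the TATA box TATAAA was in 0 of 8 against 12.0%. The stretch from 210 to 51 bases before the start is printed for the genes with the largest changes, EGFR (chr7:55018807-55018966, plus strand) and FRS2 (chr12:69470178-69470337, plus strand), for INSR (chr19:7294465-7294624, minus strand), which also rose, and for FGFR4 (chr5:177086705-177086864, plus strand), which did not. Capitals mark GC boxes that lie whole within the stretch.
EGFR: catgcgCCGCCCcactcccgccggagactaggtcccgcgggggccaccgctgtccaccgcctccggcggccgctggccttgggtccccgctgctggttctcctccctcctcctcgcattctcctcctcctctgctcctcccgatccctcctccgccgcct
FRS2: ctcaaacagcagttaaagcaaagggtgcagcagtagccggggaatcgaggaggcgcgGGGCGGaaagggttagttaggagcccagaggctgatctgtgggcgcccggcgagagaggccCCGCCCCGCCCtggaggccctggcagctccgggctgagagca
INSR: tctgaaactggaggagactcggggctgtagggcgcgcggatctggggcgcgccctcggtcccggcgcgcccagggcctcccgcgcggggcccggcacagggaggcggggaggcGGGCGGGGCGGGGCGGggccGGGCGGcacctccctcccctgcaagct
FGFR4: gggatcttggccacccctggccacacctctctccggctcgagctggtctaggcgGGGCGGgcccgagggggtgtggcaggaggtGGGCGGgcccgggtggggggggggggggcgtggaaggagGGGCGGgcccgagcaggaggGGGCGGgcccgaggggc

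These stretches held 1 GC box in EGFR, 3 in FRS2, 4 in INSR and 4 in FGFR4. Copies of the motif were thus found both in genes that were higher in the knockout libraries and in one that was not. The GC content of the whole promoters ran from 60.7% in ERBB2 to 86.3% in FGFR3, against a median of 58.3% over all promoters.

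In wild-type libraries the receptor with the highest level was MET at 34.7 FPKM, followed by EGFR at 18.01, ERBB2 at 12.6, FGFR4 at 9.93, IGF1R at 6.34 and FGFR3 at 4.57 FPKM on average. FRS2 had 3.01, ERBB3 1.99, INSR 1.44 and GAB1 0.758 FPKM. The ranges of neighbours in this order did not overlap. In knockout libraries the order changed. EGFR at 83.0 and MET at 81.0 FPKM overlapped at the top, FRS2 came next at 17.2 FPKM, and IGF1R at 14.4 and ERBB2 at 14.4 FPKM overlapped. FGFR4 at 8.98, FGFR3 at 4.47, INSR at 3.65, GAB1 at 2.21 and ERBB3 at 1.39 FPKM followed without overlap. All 10 genes passed the filter of a mean above 1 FPKM, but GAB1 passed it through its knockout values.

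**Figure D1:**
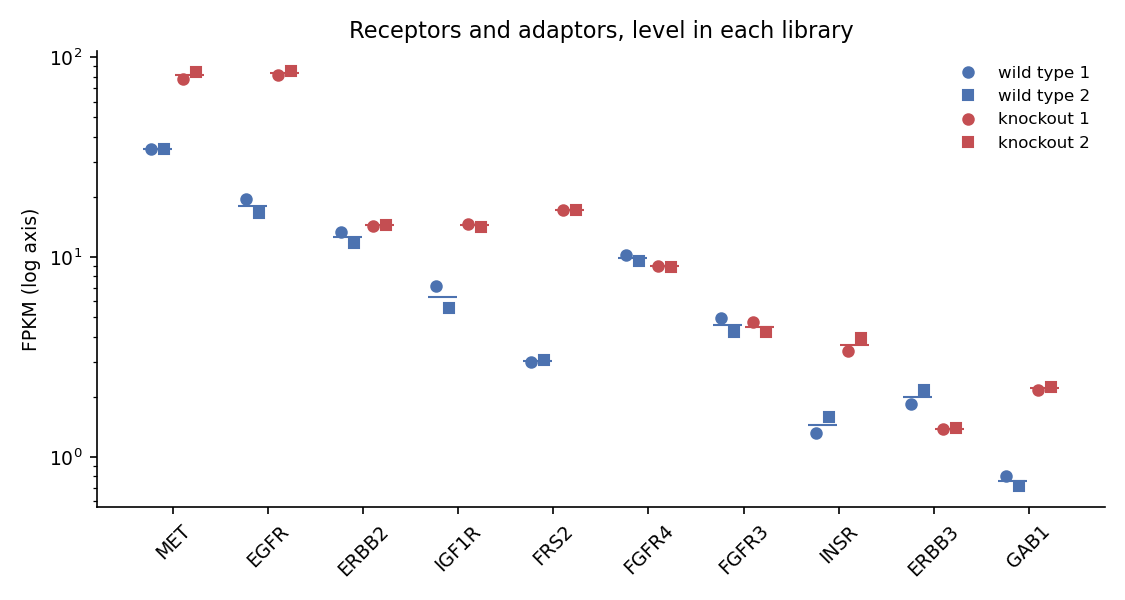
Level of each of the 10 genes in FPKM on a log axis, 1 point per library, with circles for replicate 1 and squares for replicate 2, blue for wild type and red for knockout, and a line at each group mean. EGFR, MET, IGF1R, FRS2, INSR, GAB1 and, by less, ERBB2 have both red points above both blue points, FGFR3 overlaps, and ERBB3 and FGFR4 have the red points lower.

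Of the 10 genes, 6 passed the call as higher in the knockout libraries and 0 as lower, where 14.2% and 15.3% of all tested genes did. Since the genes were chosen with this comparison known, nothing is read from that count. It was 4 with a pseudocount of 1, where INSR (0.93) and GAB1 (0.87) came under 2-fold, 4 with no filter and 2 after the correction. With a filter at 5 FPKM it was also 4, but that filter took out INSR, GAB1, ERBB3 and FGFR3 before testing. All 6 stayed at least 2-fold higher when any 1 library was left out. Calls are not counted here with a knockout library left out, since the lone library then has no spread of its own. At least 2-fold higher without regard to a test were the same 6, against 15.9% of all tested genes. Both knockout values lay above both wild-type values for 7 genes, against 40.1% of all tested genes, and below them for 2, against 45.9%. Of all genes tested, 11.4% were called higher with a pseudocount of 1, 5.98% with no filter, 12.7% with a filter at 5 FPKM and 6.30% after the correction. The median log2 fold change of the set was 1.20 as deposited, 1.88 after rescaling to TPM and 0.41 after correction for length and GC content. Over all tested genes these medians were −0.09, 0.59 and −0.06.

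In the EGF receptor family EGFR, the receptor of EGF and several related ligands, stood apart from its partners. EGFR (ENSG00000146648, chr7:55019017-55211628 of hg38, 28 exons in the canonical transcript) stood at 19.4 and 16.6 FPKM in wild type and reached 81.2 and 84.8 FPKM in the knockouts. Group means of 18.01 ± 1.996 and 83.0 ± 2.52 FPKM (SD, n = 2) gave a log2 fold change of 2.20 (standard error 0.12), the 314th highest of all tested genes. An antisense transcript, EGFR-AS1, overlaps the exons of EGFR. It was 0.0483 and 0.0677 FPKM in wild-type libraries against 0.475 and 0.491 FPKM in knockout libraries, higher in the latter but far below EGFR in each.

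ERBB2, which has no ligand of its own and acts as a partner of the other family members, was 13.4 and 11.8 FPKM in wild-type libraries against 14.2 and 14.5 FPKM in knockout libraries. Its knockout values were both above the wild-type values, with a log2 fold change of 0.20 (standard error 0.11). The exons of ERBB2 (chr17:39687914-39730426) overlap those of MIEN1 on the other strand, which was 79.3 and 98.9 against 35.9 and 44.5 FPKM, and the use of strand is not given in the sources used here, so the ERBB2 value is uncertain.

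ERBB3, a neuregulin receptor whose own kinase is nearly inactive, was 1.83 and 2.15 FPKM in wild-type libraries against 1.39 and 1.39 FPKM in knockout libraries. It had the lowest log2 fold change of the set, −0.49 (standard error 0.23), with both knockout values below the wild-type values. After rescaling to TPM the value was 0.16.

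Ratios within a library do not depend on how libraries are scaled to each other. They were not corrected for transcript length and GC content, in which the genes differ. EGFR mRNA per ERBB2 mRNA was 1.45 and 1.41 in the wild-type libraries and 5.70 and 5.84 in the knockout libraries. EGFR per ERBB3 went from 9.16 ± 2.06 to 59.8 ± 1.70 (SD, n = 2). ERBB2 per ERBB3 was 6.38 ± 1.30 in wild type and 10.4 ± 0.120 in knockout (SD, n = 2). Within the family the mRNA pool of the knockout libraries thus held more EGFR relative to both partners than that of the wild-type libraries.

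MET (chr7:116672196-116798377) was 34.7 FPKM in both wild-type libraries against 77.6 and 84.4 FPKM in the knockout libraries. On the log2 scale this was 1.22 (standard error 0.10). MET and EGFR were the most abundant receptors of the set in either group. EGFR per MET was 0.518 ± 0.0572 in wild type and 1.03 ± 0.0290 in knockout (SD, n = 2), so that their levels were alike only in the knockout libraries.

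The insulin receptor INSR and its relative IGF1R, which binds insulin-like growth factors, were both higher in the knockout libraries. INSR (chr19:7112255-7294414) was 1.31 and 1.58 FPKM in wild-type libraries against 3.38 and 3.92 FPKM in knockout libraries, a log2 fold change of 1.28 (standard error 0.20). IGF1R (chr15:98648539-98964530) was 7.13 and 5.55 FPKM in wild-type libraries against 14.7 and 14.2 FPKM in knockout libraries, with 1.18 (standard error 0.15). The wild-type libraries differed by a log2 value of −0.36 for IGF1R and 0.25 for INSR between replicate 2 and replicate 1, the widest gaps of the set. INSR per IGF1R was 0.234 ± 0.0709 in wild type and 0.253 ± 0.0321 in knockout (SD, n = 2), a difference within the spread of the libraries.

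FGFR3 and FGFR4, the fibroblast growth factor receptors of the set, had similar levels in wild-type and knockout libraries. FGFR3 (chr4:1793293-1808872) was 4.94 and 4.203 FPKM in wild-type libraries against 4.74 and 4.198 FPKM in knockout libraries, and it was the gene of the set whose groups overlapped. FGFR4 (chr5:177086905-177098144), the main FGF19 receptor of hepatocytes, was 10.3 and 9.58 FPKM in wild-type libraries against 9.02 and 8.95 FPKM in knockout libraries. Their log2 fold changes were −0.03 (standard error 0.15) and −0.14 (standard error 0.11), and after rescaling to TPM they were 0.64 and 0.53. FGFR3 per FGFR4 was 0.460 ± 0.0301 in wild type and 0.497 ± 0.0400 in knockout (SD, n = 2).

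Both docking proteins were higher in the knockout libraries. FRS2 (ENSG00000166225, chr12:69470349-69579793), the membrane-anchored protein that carries signals from FGF receptors to GRB2 and SHP2, was 2.97 and 3.05 FPKM in wild-type libraries against 17.3 and 17.1 FPKM in knockout libraries. Its log2 fold change of 2.48 (standard error 0.11) was the 207th highest of all tested genes and the largest of the set. GAB1 (ENSG00000109458, chr4:143336876-143474565), which docks on MET and EGFR and recruits phosphatidylinositol 3 kinase and SHP2, was 0.802 and 0.713 FPKM in wild-type libraries against 2.17 and 2.24 FPKM in knockout libraries. This gave a log2 fold change of 1.43 (standard error 0.26), and with a pseudocount of 1 in place of 0.1 it was 0.87.

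FRS2 and FGFR4, a receptor that it serves, moved apart. FRS2 per FGFR4 was 0.289 and 0.318 in the wild-type libraries and 1.91 and 1.91 in the knockout libraries. This ratio was not corrected for transcript length and GC content, in which FRS2 and FGFR4 differ. FRS2 per GAB1 was 3.99 ± 0.403 in wild type and 7.79 ± 0.205 in knockout (SD, n = 2), whereas MET per GAB1 was 46.0 ± 3.80 and 36.7 ± 1.39 (SD, n = 2).

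The summed level of the 8 receptors was 93.0 and 86.1 FPKM in wild-type libraries against 206 and 216 FPKM in knockout libraries. Of this sum EGFR made up 20.1% ± 1.14 in wild type and 39.3% ± 0.129 in knockout, and MET 38.8% ± 2.09 and 38.3% ± 0.958 (SD, n = 2). The shares of ERBB2, from 14.0% to 6.81%, FGFR4, from 11.1% to 4.25%, FGFR3, from 5.10% to 2.12%, and ERBB3, from 2.23% to 0.657%, were lower in both knockout libraries than in either wild-type library. IGF1R, at 7.06% ± 0.863 and 6.84% ± 0.377, and INSR, at 1.62% ± 0.298 and 1.73% ± 0.124 (SD, n = 2), kept shares within the spread of the libraries, as did MET. These shares add up to the whole, so a larger share of EGFR makes the others smaller.

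**Figure D2:**
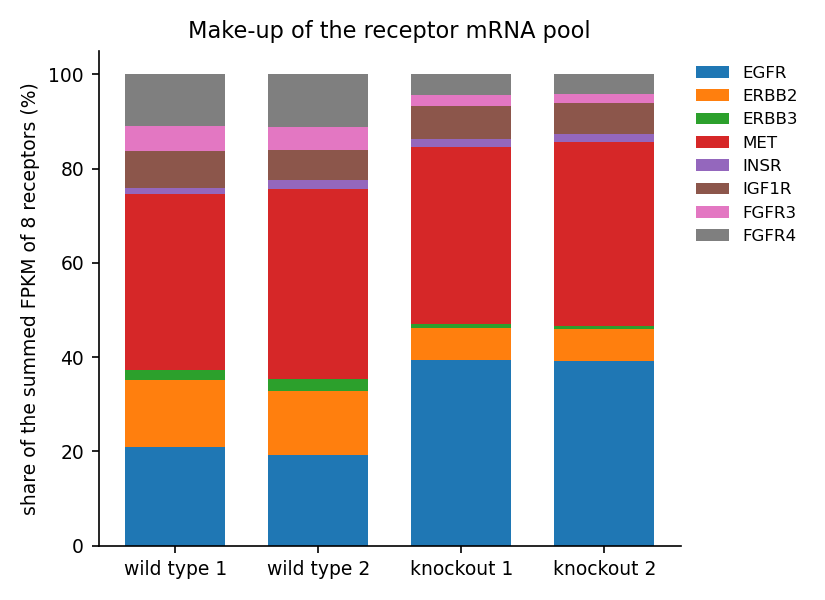
Share of each of the 8 receptors in their summed FPKM, in percent, as 1 stacked bar per library. EGFR takes about as much of the bar as MET in the 2 knockout libraries and visibly less in the 2 wild-type libraries, where ERBB2, FGFR3 and FGFR4 take more.

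The size of these changes depended on how transcript length and base composition were treated. Over 13112 tested genes with a canonical transcript in GENCODE release 44, the rank (Spearman) correlation of the log2 fold change was 0.495 with transcript length and −0.462 with GC content, given as a description since genes of a library share its preparation. In the tenth of genes with the shortest transcripts the median log2 fold change was −0.77, and in the tenth with the longest, from 7088 nt, it was 0.90. The ratio of the wild-type replicates also followed length, with a correlation of −0.325. The part of library preparation in these differences was not tested.

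The canonical transcripts of the set had a median length of 6795 nt, against 2866.5 nt over all tested genes. The 6 genes that were higher ran from 6768 nt (FRS2) to 12235 nt (IGF1R), and the other 4 from 3093 nt (FGFR4) to 5615 nt (ERBB3), so the groups did not overlap in length. In GC content the first 6 lay between 36.9% (FRS2) and 51.7% (IGF1R), and FGFR4, FGFR3 and ERBB2 between 60.4% and 63.4%, with ERBB3 at 51.3%.

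**Figure D3:**
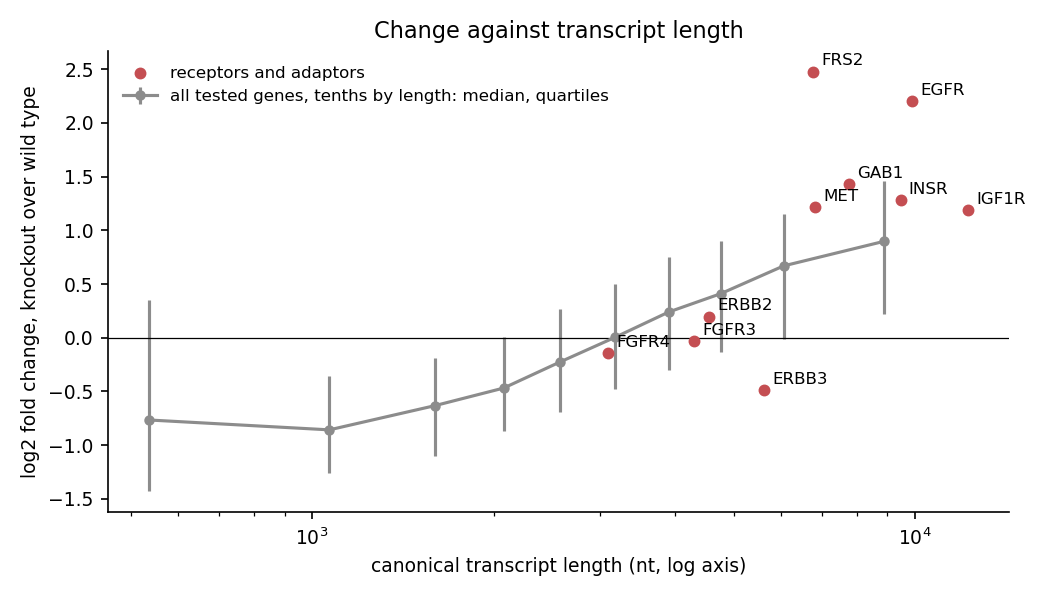
Log2 fold change of knockout over wild type against canonical transcript length in nt (log axis), with the median and quartiles of all tested genes in 10 groups of about equal size by length in grey and the 10 receptors and adaptors in red. The grey medians go from −0.77 in the shortest to 0.90 in the longest group. EGFR at 2.20, FRS2 at 2.48 and, by less, MET at 1.22 lie above the upper quartile of their length group. ERBB3 at −0.49 lies below the lower quartile of its group.

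After each library had been corrected for both properties, FRS2 had a log2 fold change of 1.44 and EGFR of 1.38, the only 2 of the set that remained at least 2-fold higher. The other 4 came to 0.65 for INSR, 0.61 for IGF1R, 0.38 for MET and 0.35 for GAB1. The corrected values of FGFR4, ERBB2 and FGFR3 were 0.44, 0.36 and 0.25, so that MET and GAB1 no longer stood apart from them. ERBB3 had −0.83. EGFR was 2.09 to 2.32 and FRS2 2.46 to 2.49 on the log2 scale of the deposited values when each library was left out in turn.

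**Figure D4:**
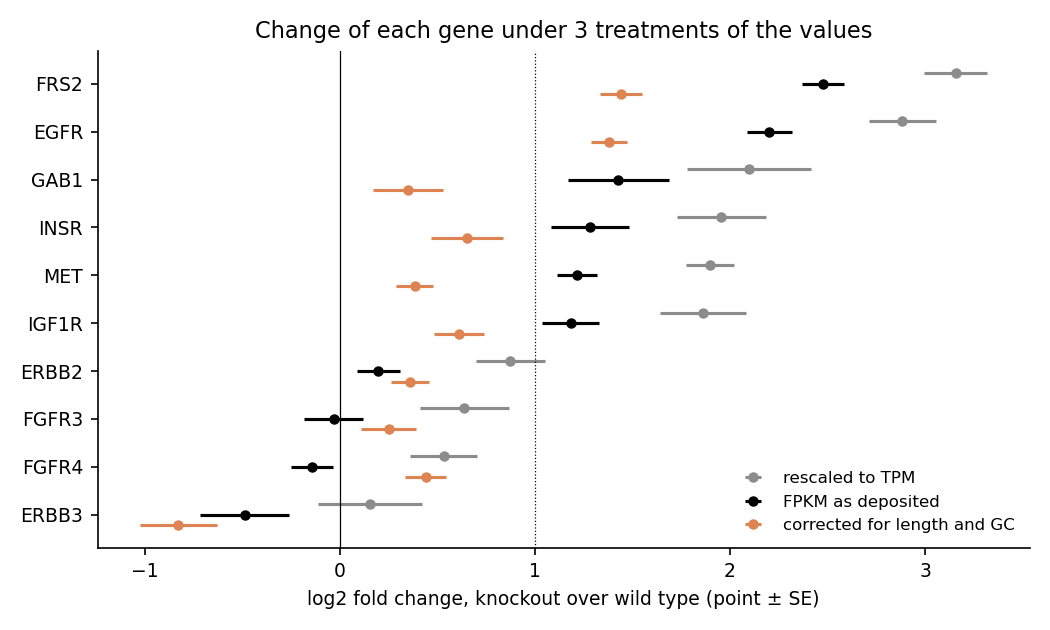
Log2 fold change of knockout over wild type for each of the 10 genes with its standard error, from FPKM as deposited (black), after rescaling to TPM (grey) and after correcting for length and GC content of transcripts (orange), with a dotted line at 2-fold. FRS2 and EGFR stay right of the dotted line under all 3 treatments, while GAB1, INSR, MET and IGF1R fall to between 0.35 and 0.65 after the correction.

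The genes with the most similar profiles were sought among all tested genes by the Euclidean distance of log2 values over the 4 libraries, each gene centred on its mean. The nearest to FRS2 were STARD4 and SASH1, at distances of 0.0539 and 0.0700. The nearest to EGFR were NAV2 and AFF4, at 0.0416 and 0.0651, and the nearest to GAB1 were DCAF17 and RP11-706O15.3, each at 0.0178 or 0.0179. These distances rest on 4 libraries in 2 groups.

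Genes that act with these receptors were then compared from 6 lists of 165 genes, none of them among the 10. Of these 86 had a mean above 1 FPKM and were tested with limma over all genes, and 26 were called higher and 8 lower in the knockout libraries, against 14.2% and 15.3% of all tested genes. Their median log2 fold change was 0.52, against −0.09 over all tested genes, and their median transcript length was 4759 nt. With the values corrected for length and GC content 8 were called higher and 3 lower, against 6.30% and 7.497% of all genes tested. Their median was then 0.19, against −0.06 over all genes tested. After rescaling to TPM 50 were higher and 2 lower, against 33.1% and 3.37% of all tested genes. The median over all tested genes was 0.59 after this rescaling, so the higher calls rose in number across all genes as well. With either knockout library left out, limma on the other 3 libraries called 0 of the pathway genes, though 58 without replicate 1 and 53 without replicate 2 had an unadjusted p under 0.05, and without wild-type replicate 2 it called 22 higher and 5 lower.

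Most ligands, listed by the families that bind these receptors or their relatives, were hardly expressed in these libraries. Of 33 ligand genes 11 were listed at 0 in every library, among them HGF, the ligand of MET, INS and FGF19, and 8 were tested. EGF was 0.0464 and 0.0583 FPKM in wild-type libraries against 0.292 and 0.601 FPKM in knockout libraries, IGF1 was at most 0.0957 FPKM and IGF2 at most 0.158 FPKM, all below the filter. Of the 8 tested ligands 2 rose and the other 6 did not pass, with a list median of 0.50. After the correction for length and GC content the median was −0.12, 1 ligand was called higher and 1, NRG1, lower.

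EREG, which encodes epiregulin, a ligand of EGFR, rose from 2.31 and 2.39 to 8.42 and 9.52 FPKM. This was a log2 fold change of 1.89 (limma standard error 0.14, Benjamini-Hochberg adjusted p = 5.12e-04). EREG was also called after the correction, where its log2 fold change was 1.08. NRG4, a neuregulin, was listed by family, and binding to a receptor of the set is not claimed for it. Its level rose from 19.3 and 19.0 to 61.8 and 39.9 FPKM. The log2 fold change was 1.37 with an adjusted p of 0.00239 from limma, and NRG4 was not called after the correction. In the knockout libraries it had the highest level of the tested ligands, and in wild type NRG1 was higher, at 27.3 and 43.0 FPKM. TGFA was 0.830 and 1.25 against 1.57 and 1.63 FPKM and did not pass (adjusted p = 0.126 from limma). After rescaling to TPM TGFA was called higher.

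Of the 10 coreceptors and processing enzymes 4 were tested, 2 rose and 1 fell, with a list median of 0.71 as deposited and 0.57 corrected. KLB, the coreceptor through which FGFR4 binds FGF19, was at most 0.0661 FPKM in any library, and FGF19 itself was listed at 0. ADAM10, a membrane protease that sheds ligand precursors, rose from 8.47 and 8.38 to 37.5 and 41.1 FPKM (log2 fold change 2.21, adjusted p = 4.86e-04 from limma), and ADAM17, which sheds TGFA and amphiregulin, from 5.26 and 5.37 to 13.2 and 14.3 FPKM (log2 fold change 1.36, adjusted p = 5.38e-04 from limma). ADAM10 was called after the correction and ADAM17 was not. SPINT2, an inhibitor of the proteases that activate HGF, fell from 3.14 and 5.82 to 1.14 and 0.806 FPKM, with a log2 fold change of −2.05 (adjusted p = 0.00343 from limma) that was not called after the correction. Its knockout mean of 0.972 FPKM lay below the filter, which it passed through the wild-type libraries. FURIN, which cleaves the precursors of INSR, IGF1R and MET, was 33.1 and 28.7 against 32.4 and 32.1 FPKM, with overlapping groups. It was above ADAM10 in wild type and below it in the knockout libraries.

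Among the other 50 receptor tyrosine kinases 15 were tested, 3 rose and the other 12 did not pass, with a median of 0.24 as deposited and 0.46 corrected. The 3 were ROR1, a receptor of WNT5A, with a log2 fold change of 1.98 (adjusted p = 0.00171 from limma), LMTK2 with 1.62 (adjusted p = 6.14e-04 from limma) and PDGFRB, a platelet-derived growth factor receptor, with 1.55 (adjusted p = 0.00392 from limma). ROR1 and PDGFRB were below 1 FPKM on average in wild type, at 0.774 and 0.905 FPKM, and passed the filter through the knockout libraries. PDGFRB also stands among the fibroblast genes above, and unlike COL1A1 and COL3A1 it was higher in the knockout libraries. ROR1 was not called after the correction. EPHA2, an ephrin receptor and the most abundant of the list, was 32.5 and 32.9 against 36.2 and 41.0 FPKM and did not pass (adjusted p = 0.0976 from limma).

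Of the 24 tested docking proteins and adaptors other than FRS2 and GAB1, 7 rose and 4 fell, with a median of 0.47 as deposited and 0.36 corrected. The relatives of the members of the set differed among themselves. GAB2, the closest relative of GAB1, rose from 3.08 and 2.55 to 7.93 and 8.43 FPKM (log2 fold change 1.51, adjusted p = 6.97e-04 from limma) and was called after the correction as well. FRS3, the relative of FRS2, was 1.43 and 1.48 against 0.939 and 0.871 FPKM with a log2 fold change of −0.63 that did not pass (adjusted p = 0.0919 from limma). The substrates of the insulin receptor did not pass either. IRS1 was 1.07 and 2.17 against 1.31 and 1.14 FPKM (adjusted p = 0.508 from limma), and IRS2 was 2.18 and 1.73 against 3.52 and 3.53 FPKM (adjusted p = 0.0104 from limma). After rescaling to TPM IRS2 was called higher.

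Components that FRS2 and GAB1 recruit were among those that rose. PTPN11, which encodes the phosphatase SHP2, rose from 22.004 and 19.7 to 58.5 and 61.3 FPKM, a log2 fold change of 1.52 (adjusted p = 5.12e-04 from limma). SOS1, the exchange factor for RAS, rose from 2.97 and 2.98 to 8.79 and 9.15 FPKM, with 1.56 (adjusted p = 5.38e-04 from limma). RASA1, which switches RAS off, had 1.84 (adjusted p = 7.94e-04 from limma). GRB10, an inhibitor of insulin and IGF1 receptor signalling, fell from 12.4 and 14.4 to 4.39 and 3.55 FPKM, with −1.73 (adjusted p = 6.01e-04 from limma). RASA1 and GRB10 were called after the correction, while PTPN11 and SOS1 were not. GRB2, the most abundant adaptor, was 59.5 and 58.4 against 84.2 and 85.8 FPKM, a log2 fold change of 0.53 that was under 2-fold as deposited. After rescaling to TPM it was 1.21, and GRB2 was called higher.

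Of 20 tested genes for receptor turnover and braking 7 rose and 1 fell, with a median of 0.71 as deposited and 0.06 corrected. CBL, the ubiquitin ligase that marks EGFR and MET for degradation, rose from 2.34 and 2.64 to 8.45 and 8.40 FPKM (log2 fold change 1.72, adjusted p = 5.38e-04 from limma). NEDD4, another ubiquitin ligase, had 1.56 (adjusted p = 5.12e-04 from limma), and the phosphatase gene PTPN12 had 1.23 (adjusted p = 8.17e-04 from limma). EPN1, an adaptor of clathrin-mediated uptake and the most abundant of the list, fell from 137.8 and 146.5 to 61.6 and 59.6 FPKM (log2 fold change −1.23, adjusted p = 5.72e-04 from limma). EPN1 was not called after rescaling to TPM. After the correction it was called and none of the 7 genes that had risen was.

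In the cascade from RAS to ERK 15 genes were tested, 5 rose and 2 fell, with a median of 0.65 as deposited and 0.14 corrected. NF1, which switches RAS off, rose from 4.72 and 5.69 to 16.0 and 17.7 FPKM, a log2 fold change of 1.68 (adjusted p = 5.38e-04 from limma). HRAS fell from 119 and 166 to 44.2 and 48.2 FPKM, and MAP2K2, which encodes MEK2, from 261 and 376 to 103 and 109.9 FPKM, with log2 fold changes of −1.61 (adjusted p = 9.00e-04 from limma) and −1.56 (adjusted p = 0.00124 from limma). After the correction 1 gene of the list was called higher and 0 lower. NF1, HRAS and MAP2K2 were not called after the correction, and HRAS and MAP2K2 were not called after rescaling to TPM either. PEBP1, an inhibitor of RAF kinases and the most abundant of the list, was 352 and 375 against 257 and 267 FPKM and did not pass (adjusted p = 0.0167 from limma).

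**Figure D5:**
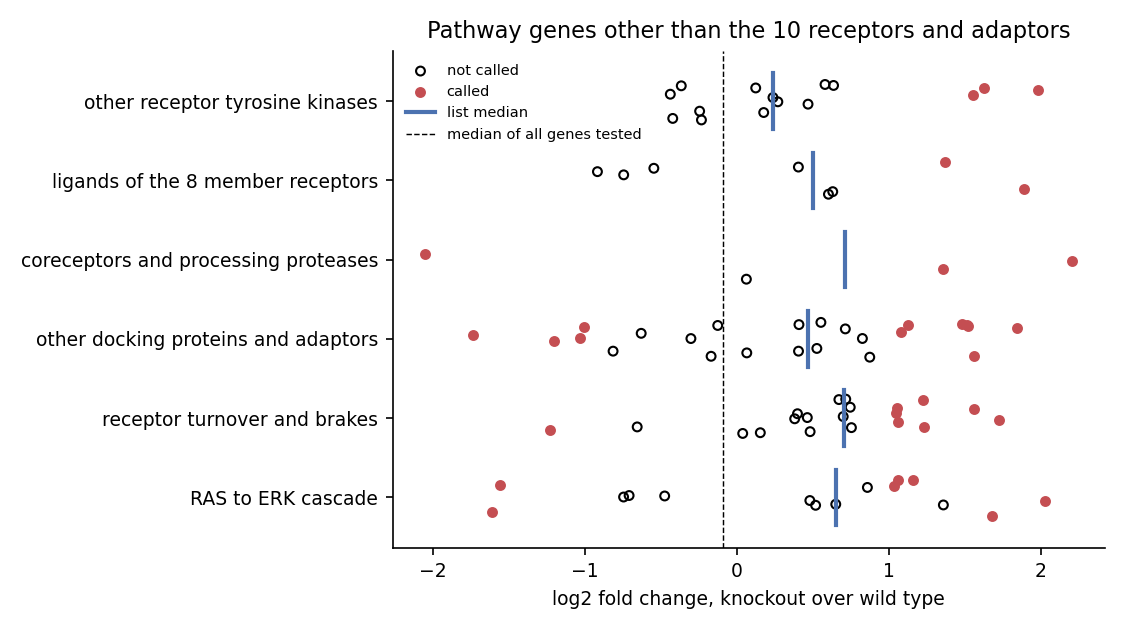
Log2 fold change, as deposited, of knockout over wild type for the 86 tested genes of the 6 pathway lists, 1 point per gene, filled red where called and open where not, with a blue bar at each list median and a dashed line at the median of all tested genes. The list medians lie between 0.24 and 0.71, right of the dashed line at −0.09, and called genes stand on both sides in 4 of the lists. With corrected values, which are not drawn, the list medians lie between −0.12 and 0.57, against −0.06 over all genes tested.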

How the data were processed

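The authors mapped reads to hg38 with TopHat2 and an Ensembl annotation, without new junctions, and then deposited an FPKM value for every gene in every library, made with Cuffdiff of Cufflinks. Tool versions, the use of strand and the scaling between libraries are not given in the sources used here. The table also holds averages, fold changes, p-values and q-values of the authors, which were not used. Each identifier stood on 4 lines out of register with the symbols. Put back in order, identifier and symbol paired as in GENCODE release 44 for 98.8% of 35363 symbols found there. The commonest ratio between libraries among low genes was shared by at most 4.53% of them, so no value of 1 read was found and depth is unknown.

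log2(FPKM + 0.1) was compared with limma 3.58.1 in R 4.3.3 (trend in the prior variance, no replicate block, 4 libraries) over the 13246 genes with a mean above 1 FPKM. Calls needed an adjusted p under 0.01 (Benjamini-Hochberg) and 2-fold, after the study's own thresholds. An exact permutation test of 2 against 2 cannot go below p = 0.33, so the limma p-values borrow the spread of other genes. On simulated data for this comparison (12942 genes) limma recovered 95.9% of genes changed by 1.5 and 100% of those changed by 2.5 on the log2 scale, with 5 false calls. The simulated noise was drawn independently for each gene from the fitted spread. These figures therefore check the method and do not give the error rate in these libraries. The correction fitted a loess surface (span 0.3) on log2 transcript length and GC content in each library. The genes and lists were chosen with earlier results of these data known. Genes named are the 10, TXNDC9, up to 4 called genes with the largest change and the most abundant gene of each list, and ligands and docking proteins fixed by name. 1 gene that this rule names is not reported here. NRG1 was named after its values were seen. Alternatives were other pseudocounts, filters, scalings and thresholds, a replicate block, no trend, the correction, and each library left out. Python 3.11.15, pandas 2.3.3, numpy 2.4.6 and matplotlib 3.10.9 were used.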

Additional observations from a re-analysis of the deposited data

How the results depend on the processing

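As deposited, limma called 1885 genes higher and 2021 lower in the knockout libraries, and 26 and 8 of the pathway genes. Rescaling to TPM gave 4380 and 447, and 50 and 2 of the pathway genes. Correcting for length and GC content gave 826 and 983, and 8 and 3 of the pathway genes, and with the replicate block added 730 and 983, and again 8 and 3. A filter at a mean above 5 FPKM gave 1220 higher genes, and no filter gave 4 lower pathway genes. With each library left out the counts ranged from 0 to 2194 higher and from 0 to 2627 lower, and from 0 to 26 and from 0 to 7 of the pathway genes. The low ends came without a knockout library, when the spread rested on the wild-type pair and the lone knockout library was assumed to vary like it. Then 7197 genes (without knockout replicate 1) and 7382 (without replicate 2) had an unadjusted p under 0.05 in limma. The 8 higher pathway genes called after the correction were all among the 26, and of the 3 lower ones 2 were among the 8, the third being NRG1.

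Of the 10 receptors and adaptors 6 were at least 2-fold higher, and 2 after the correction, with or without the block. The other 4 of these 6 came under 2-fold once the fitted trend with length and GC content was taken out. The part of library preparation in that trend was not tested. TXNDC9 went from −0.55 to 0.12 on the log2 scale after rescaling to TPM, and PEBP1 to 0.21 and IRS1 to 0.34. PEBP1 came to 0.0325 and FRS3 to 0.0721 after the correction, with or without the block. FURIN came to −0.0799 after centring. With each wild-type library left out FURIN ranged from −0.0379 (without replicate 2) to 0.164, and IRS1 from −0.779 to 0.176 (without replicate 2). None of these genes was called as deposited. The cause of these turns was not tested.

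Deviations from the group mean correlated at −0.0904 between same-numbered libraries, so no pairing was assumed. With the replicate block 1960 genes were called higher and 2146 lower, and 27 and 8 of the pathway genes. Depth is unknown, so the counting error of values under about 1 FPKM, such as GAB1 in wild type, could not be estimated here.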
